A study of Mus musculus with 4 samples.

Results

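The genes described here are 10 long noncoding RNAs that carry small nucleolar RNAs (snoRNAs) in their introns, namely Gas5, Snhg1, Snhg3, Snhg5, Snhg6, Snhg8, Snhg12, Snhg15, Snhg17 and Zfas1. They were chosen by name from the 55487 genes in the count table, with earlier results of these data known, and each name matched 1 gene. All 10 members were among the 19384 genes tested, whose counts in the 4 libraries added up to 10 or more. The RNA came from wild-type mouse embryonic fibroblasts (MEFs), primary connective tissue cells grown from C57BL/6J embryos in medium with fetal bovine serum. The sample labels give the cells as passage 2 and the study's text as P3. Control MEFs were left without added PEDF (0 ng/mL), and PEDF-treated MEFs received recombinant PEDF, a secreted protein of the serpin family that was purified from mammalian cells, at 100 ng/mL for 24 h. Experiments 1 and 2 each had 1 control and 1 PEDF library, and each used MEFs from its own embryos, so the 2 libraries of a group came from separate preparations of cells. The number of embryos behind a preparation is not given in the sources used here.

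A snoRNA guides the chemical modification or the processing of ribosomal RNA in the nucleolus. Box C/D snoRNAs direct methylation of the ribose and box H/ACA snoRNAs direct the conversion of uridine to pseudouridine, and in mammals most are cut out of the introns of a host gene. In a noncoding host the introns hold the working product, while the spliced RNA is polyadenylated, reaches the cytoplasm and, where it is translated from a short reading frame, is broken down by nonsense-mediated decay. Several of these hosts begin with a run of pyrimidines like that of ribosomal protein mRNAs, which ties their translation to growth signals through mTORC1, and Gas5 was found as a transcript that accumulates when fibroblasts stop growing.

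The 10 host genes held 36 annotated snoRNA genes at 34 positions, between 60 and 205 bases long. Gas5 held 10 of these genes at 9 positions and Snhg1 held 8. Snhg12 held 5 at 4 positions, Snhg17 and Zfas1 held 3 each, Snhg3 and Snhg5 held 2 each, and Snhg6, Snhg8 and Snhg15 held 1 each. A search for TGATGA in the first 20 bases together with CTGA in the last 16 bases, the letters of boxes C and D, found both in 20 of the 36, of which 13 lie in Gas5 and Snhg1. ACA at 3 bases from the end, the letters of box ACA, was found in 7 of those without the C and D letters. Of the 36, 4 had any count, and 3 of these are printed here, 1 for each host whose snoRNAs had reads. Snora73a, the fourth, is nearly identical to Snora73b and is not printed. They are given 5′ to 3′ from the GENCODE M21 transcripts (build GRCm38) with the box letters in capitals.
Snora73b (in Snhg3, chr4:132352322-132352526, minus strand): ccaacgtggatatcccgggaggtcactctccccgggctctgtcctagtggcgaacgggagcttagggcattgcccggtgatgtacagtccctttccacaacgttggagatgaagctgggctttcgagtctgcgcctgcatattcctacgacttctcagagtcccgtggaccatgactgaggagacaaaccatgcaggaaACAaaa
Gm23201 (in Zfas1, chr2:167064998-167065086, plus strand): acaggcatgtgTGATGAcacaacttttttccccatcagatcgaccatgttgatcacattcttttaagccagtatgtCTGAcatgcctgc
Snord87 (in Snhg6, chr1:9942463-9942549, minus strand): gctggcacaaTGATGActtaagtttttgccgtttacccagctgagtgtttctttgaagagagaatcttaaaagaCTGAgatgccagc

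The letters around the start of transcription were examined because a pyrimidine run at that place marks the growth-controlled class. RefSeq start windows of build GRCm38.p6 were found for 9 members, 11 windows in all, and Snhg6 had none. A run, here a C followed by at least 4 letters that are each C or T, on the strand of the gene, could be read from the start base itself at 2 of the 11 starts (18.2%), 1 in Gas5 and 1 in Snhg8, and at 2.51% of the 32851 RefSeq starts. In Snhg8 the run begins at the start base, and in Gas5 it begins 1 base before it. The other annotated start of Gas5 had no run in its window. RefSeq starts need not be the gene starts of the count table, which they match for Snhg3 and Zfas1 only. The Gas5 start with the run lies 744 bp inside the gene of that table, and the Snhg8 start 68 bp inside. Anywhere in the 30 bases around the start a run was found in 5 of the 11 windows (45.5%), in 5 genes, and in 36.4% of all windows. The windows below show both starts with a run at that place, Snhg12 with the longest run (8 bases), and Snhg17, which had the lowest log2 fold change of the members without the block and with it. The start is base 16 of each, and capitals mark the runs.
Gas5 (chr1:161035151-161035180, plus strand): agccgccatctcagCCTTTCggagctgtgc
Snhg8 (chr3:123508322-123508351, minus strand): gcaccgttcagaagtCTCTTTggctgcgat
Snhg12 (chr4:132308663-132308692, plus strand): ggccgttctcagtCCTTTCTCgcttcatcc
Snhg17 (chr2:158361495-158361524, minus strand): tcgtgaagaccacagtttcctgtcgcgtgg

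The libraries held between 14722848 and 18144640 counts. Levels of 1 gene in different libraries are given as CPM, counts per 1000000 counts of a library, with its size scaled by edgeR's TMM factor, which lay between 0.983 and 1.01. The labelled cell type was checked against marker genes. All 8 fibroblast markers were detected and together reached 14615 TPM in the control and 13162 TPM in the PEDF library of experiment 1, and 17465 and 14933 TPM in those of experiment 2, lower with PEDF in both. The 4 epithelial markers together reached 4.88 to 6.80 TPM, and the 4 endothelial markers 5.92 to 6.24 TPM. The 5 markers of macrophages and blood reached 43.4 to 51.2 TPM, mostly Cd68, with the globin gene Hbb-bt at 0. The 4 muscle markers reached 364 to 440 TPM in control and 416 to 515 TPM in PEDF libraries, mostly the actin gene Actc1. The part of the fibroblast and muscle markers in the results below was not tested. In bulk samples such as these, fewer cells of a type and less RNA per cell cannot be told apart.

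All 10 hosts were expressed in every library, at levels that differed by several fold between genes. Between genes, levels are compared per length, as the TPM values of the authors (transcripts per 1000000, for which a count is divided by gene length), with the mean and the range over the 4 libraries. Gas5 had the highest mean, 75.7 TPM (range 65.5 to 81.5), followed by Snhg6 at 70.1 TPM (67.7 to 73.0), Snhg8 at 62.2 TPM (52.9 to 70.7), Zfas1 at 48.7 TPM (38.8 to 53.7), Snhg3 at 46.9 TPM (36.5 to 59.1) and Snhg1 at 35.2 TPM (29.8 to 38.9). The range of each of these genes over the libraries overlapped that of the next. Within a library, Snhg6 was above Snhg8, Snhg8 above Zfas1 and Snhg3 above Snhg1 in 4 of 4 libraries, whereas Gas5 was above Snhg6 and Zfas1 above Snhg3 in 3 of 4. A second step followed, in which Snhg5 at 27.0 TPM (22.0 to 29.7), Snhg12 at 26.5 TPM (23.5 to 29.4) and Snhg15 at 24.0 TPM (19.5 to 26.5) overlapped one another but not Snhg1. Snhg17 stood below all of them at 13.0 TPM (9.10 to 17.4). The lengths behind these TPM values differ from GENCODE M21 for Snhg5 (3634 bp against 1730 bp), Snhg15 (2652 bp against 1359 bp) and Zfas1 (1901 bp against 2929 bp). The places of these genes in the order therefore depend on the length used. Among 9959 noncoding genes, of which 4370 had a TPM above 0, Gas5 ranked 99 and Snhg17 ranked 488. The TPM values of the 10 hosts summed to 445 in the control library of experiment 1, 463 in the control library of experiment 2, 365 in the PEDF library of experiment 1 and 443 in the PEDF library of experiment 2. By counts rather than TPM, the hosts took between 0.0303% and 0.0362% of a library, and the PEDF library of experiment 1 held the smallest share.

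**Figure D1:**
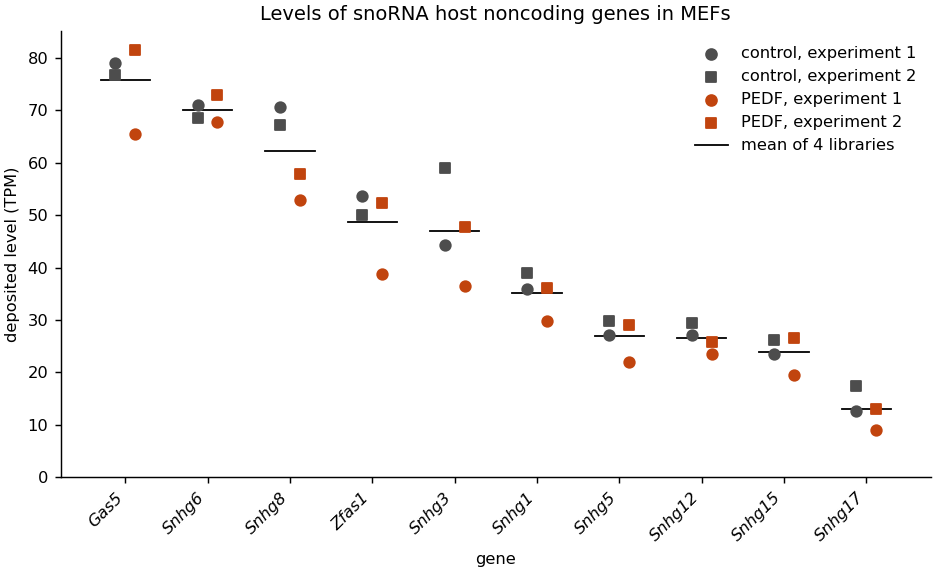
Deposited level (TPM) of each snoRNA host noncoding gene in the 4 libraries, with circles for experiment 1, squares for experiment 2, grey for control and red for PEDF, and a line at the mean of the 4 libraries. Gas5 has the highest mean at 75.7 TPM and Snhg17 the lowest at 13.0 TPM, and the PEDF library of experiment 1 is the lowest point for all 10 genes.

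The question of the experiment was which transcripts PEDF changes in MEFs, and the hosts were compared both across the preparations of cells and within them. Without a term for the experiment, none of the 10 members passed the quasi-likelihood test of edgeR at an adjusted p of 0.05, and 1 of all 19384 genes did (0.00516%). DESeq2 likewise passed none of the 10, as against 0.0115% of all genes. Before adjustment, edgeR gave 2 of the 10 a p under 0.05, Snhg17 and Snhg8, both lower with PEDF, as against 6.88% of all genes in either direction. The fitted log2 fold change was below 0 in 9 of the 10, as against 49.8% of all genes, and the median over the 10 was -0.16, as against 0.00 over all genes. Blocking by experiment sets each PEDF library against the control library grown from the same embryos. In that fit 1 of the 10, Snhg17, was lower at an adjusted p of 0.05, as against 2.07% of all genes.

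Snhg17 (ENSMUSG00000085385, chr2:158353700-158361580, minus strand) hosts 3 snoRNA genes and has the longest exonic sequence of the members, 7052 bp. Its level was 31.5 CPM in the control library and 23.4 CPM in the PEDF library of experiment 1, and 42.5 CPM in the control library and 31.8 CPM in the PEDF library of experiment 2. The PEDF library was the lower one in each experiment, but the PEDF library of experiment 2 matched the control library of experiment 1, so the groups overlapped. The means were 37.0 ± 7.77 CPM in control MEFs and 27.6 ± 5.90 CPM with PEDF (SD, n = 2), and the log2 fold change was -0.42 with a standard error of 0.18 (adjusted p = 0.719, edgeR). With the block the log2 fold change was again -0.42, or 1.34-fold lower, and the standard error fell to 0.09 (adjusted p = 0.000191, edgeR). The log2 ratios within the experiments were -0.43 and -0.42, with 95% intervals from the counts of -0.63 to -0.23 and -0.58 to -0.26.

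The spread that the block removed was large for Snhg17. It was higher in experiment 2 than in experiment 1 by 0.44 on the log2 scale (standard error 0.09, adjusted p = 0.000107, edgeR), and it was the 1 member called in that comparison, in which 2.30% of all genes were called higher. Its difference between preparations was therefore as large as its difference between treatments. The fit with a block leaves 1 degree of freedom for each gene, so its standard error rests mostly on the spread shared by all genes. DESeq2 with the block gave Snhg17 an unadjusted p of 0.0138 and set no adjusted p for any member. Without the block, the log2 fold change was -0.62 without control replicate 1, -0.19 without control replicate 2, -0.23 without PEDF replicate 1 and -0.66 without PEDF replicate 2. The first and the last of these had adjusted p-values of 0.00104 and 0.00460 (edgeR), in fits that called 1.07% and 0.371% of all genes lower, and the other two had 0.999. Each of these fits leaves 1 group with a single library, which is assumed to vary like the 2 libraries of the other group, and sets libraries of unequal mix of experiments against each other. Without the filter on low counts Snhg17 had an adjusted p of 0.0160 (edgeR), as against 0.283% of all genes called lower.

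**Figure D2:**
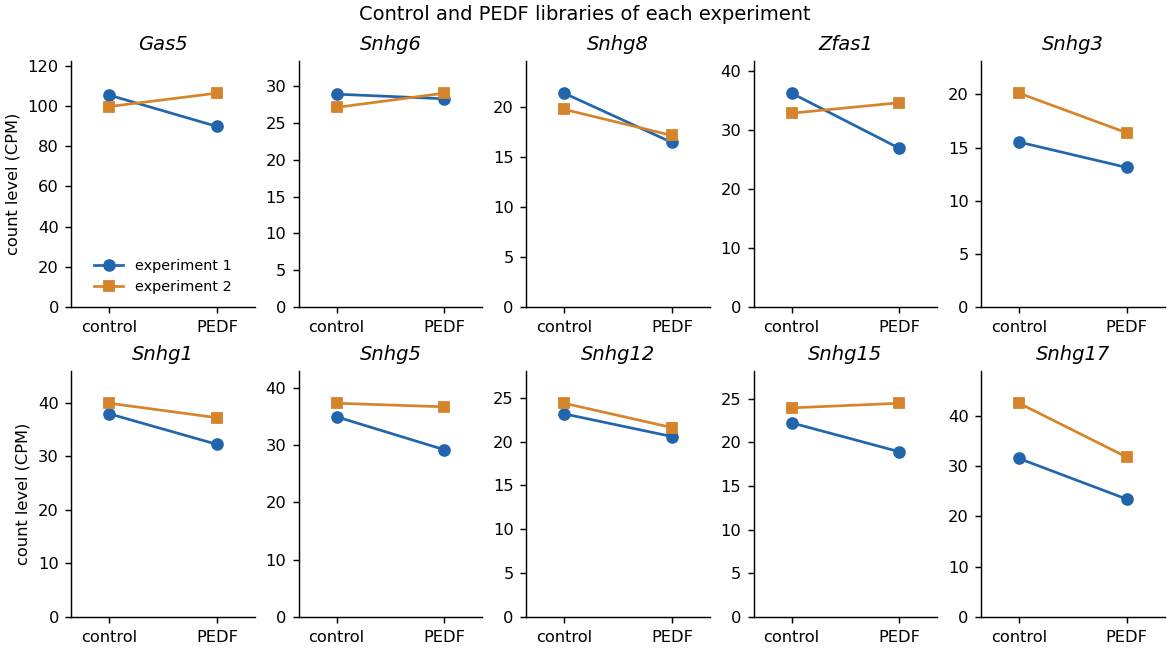
Level in CPM of each snoRNA host noncoding gene in the control and PEDF libraries of experiment 1 (blue circles) and experiment 2 (orange squares), with a line joining the 2 libraries of an experiment and every axis starting at 0. For Snhg17 both lines fall, from 31.5 to 23.4 CPM and from 42.5 to 31.8 CPM, while for Gas5 and Zfas1 the lines cross.

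Snhg8, Snhg12 and Snhg3 had a lower level with PEDF in both experiments, and none of them passed the test without or with the block. Snhg8, which hosts Snora24, had 21.4 CPM in the control library and 16.5 CPM in the PEDF library of experiment 1, and 19.8 and 17.2 CPM in those of experiment 2. Both PEDF libraries lay below both control libraries. Its log2 fold change was -0.29 (standard error 0.12, adjusted p = 0.696), and -0.29 (adjusted p = 0.154) with the block, both by edgeR. Snhg12, which hosts Snora44, Snora61, Snora16a and Snord99, had 23.2 and 20.6 CPM in the control and PEDF libraries of experiment 1, and 24.4 and 21.6 CPM in those of experiment 2. Here too both PEDF libraries lay below both control libraries, and the log2 fold change was -0.17 (standard error 0.11, adjusted p = 0.776, edgeR). Snhg3, which hosts Snora73a and Snora73b, had 15.5 and 13.1 CPM in experiment 1 and 20.1 and 16.4 CPM in experiment 2, control library first. As for Snhg17, the PEDF library was lower within each experiment while the groups overlapped, and the log2 fold change was -0.27 (standard error 0.15, adjusted p = 0.753, edgeR).

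Snhg1 and Snhg5, hosts of box C/D snoRNAs, also had a lower level with PEDF in both experiments, and neither passed the test without or with the block. Snhg1 had 37.9 and 32.2 CPM in the control and PEDF libraries of experiment 1, and 39.9 and 37.2 CPM in those of experiment 2. Its groups did not overlap, by a margin smaller than 1 CPM, and it was the last of the 3 members, with Snhg8 and Snhg12, for which both PEDF libraries were lower than both control libraries, as against 18.4% of all genes. Its log2 fold change was -0.16 (standard error 0.10, adjusted p = 0.759, edgeR). Snhg5, which hosts Snord50a and Snord50b, had 34.97 and 29.2 CPM in experiment 1 and 37.3 and 36.7 CPM in experiment 2, control library first. The PEDF library of experiment 2 lay between the control libraries, and the log2 fold change was -0.13 (standard error 0.11, adjusted p = 0.822, edgeR).

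Gas5, Zfas1, Snhg15 and Snhg6 went in opposite directions in the experiments. Gas5 had 106 and 89.9 CPM in the control and PEDF libraries of experiment 1, and 99.8 and 106 CPM in those of experiment 2. Its fitted log2 fold change was -0.06 with a 95% interval of -0.24 to 0.12, and -0.17 to 0.05 with the block, both of which include 0. Zfas1, which overlaps the start of the helicase gene Znfx1 on the other strand, had 36.3 and 26.9 CPM in experiment 1 and 32.9 and 34.6 CPM in experiment 2, control library first. One library, that of PEDF in experiment 1, lay apart from the other 3, and the log2 fold change was -0.16 (95% interval -0.41 to 0.08). Snhg15, host of Snora9, had 22.2 and 18.9 CPM in experiment 1 and 23.9 and 24.5 CPM in experiment 2, and a log2 fold change of -0.09 (95% interval -0.36 to 0.19). Snhg6, host of Snord87, varied least, with 28.9 and 28.3 CPM in experiment 1, 27.1 and 29.1 CPM in experiment 2, and a log2 fold change of 0.04 (95% interval -0.18 to 0.25).

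Within experiment 1 the log2 ratio of PEDF to control was below 0 for all 10 members, as against 50.1% of all genes, and the median was -0.24. These ratios share the same pair of libraries and are not independent of one another. The 95% interval from the counts, an exact binomial interval that covers counting error only, lay wholly below 0 for 7 of the 10 in experiment 1, as against 10.2% of all genes, many of which have fewer counts and wider intervals. In experiment 2 the ratio was below 0 for 6 members, as against 48.7% of all genes, with a median of -0.06, and the interval lay below 0 for Snhg17 and Snhg3, 2 of the 10, as against 12.7%. The ratio was below 0 in both experiments for 6 members, Snhg1, Snhg3, Snhg5, Snhg8, Snhg12 and Snhg17, as against 28.8% of all genes, and above 0 in both for 0 members, as against 30.1%. The intervals of the experiments did not overlap for Gas5 (-0.34 to -0.13 and 0.00 to 0.19) and Zfas1 (-0.62 to -0.24 and -0.09 to 0.24), 2 of the 10, as against 2.87% of all genes with experiment 1 lower and 2.25% with experiment 2 lower. With 1 library for each treatment in an experiment, the difference between the experiments could not be tested against replicates. The median over the members was -0.03 without the PEDF library of experiment 1 and -0.30 without that of experiment 2.

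**Figure D3:**
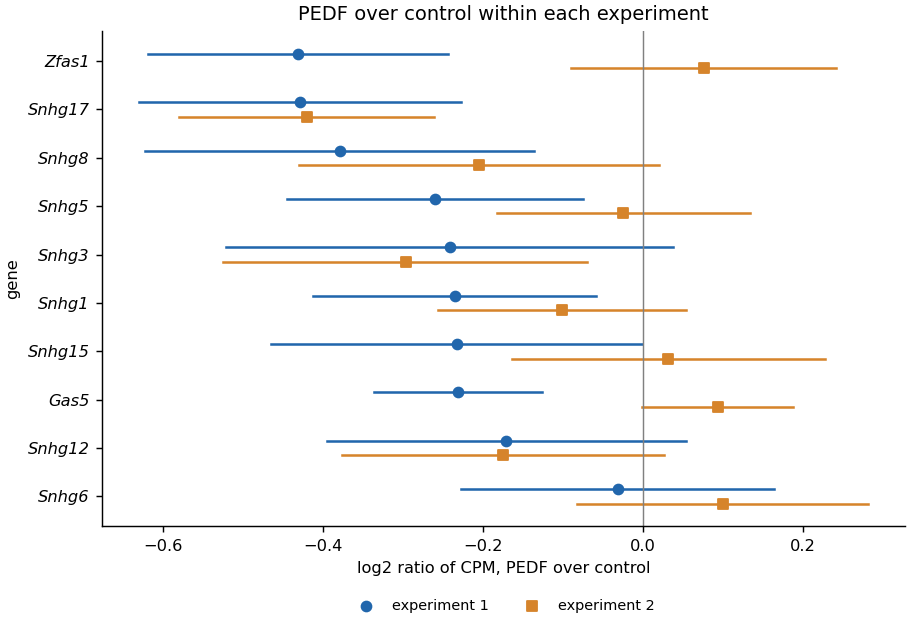
Log2 ratio of CPM in the PEDF library to the control library of the same experiment, for each snoRNA host noncoding gene, with points for the ratio and lines for the exact 95% interval from the counts, which covers counting error only. All 10 points of experiment 1 are below 0, 6 of experiment 2 are, and the points of Snhg17 lie at -0.43 and -0.42.

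Fold changes in these libraries went with gene length, and the members differ in length from 853 to 7052 bp. With the experiment as a block, the median log2 fold change of the 1003 genes of 1000 to 2000 bp with a mean log2 CPM above 3 was 0.09, and that of the 2134 genes over 8000 bp was -0.08. The same median was 0.09 for 416 genes up to 1000 bp, 0.05 for 3010 genes of 2000 to 4000 bp and -0.01 for 4159 genes of 4000 to 8000 bp. Medians of shorter genes thus lay above 0, whereas Snhg8 (853 bp) and Snhg3 (986 bp), the shortest members, had log2 fold changes of -0.29 and -0.27. Of the 10 members, 9 lay under the lower quartile of their own length class, as against 25% of all genes by construction, and Snhg6 was the exception. This count was made after the values had been seen.

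When the trends with length and GC content were taken out of each library in the fit with the block, the log2 fold change was below 0 for all 10 members, as against 51.3% of all genes, and the median moved from -0.16 to -0.25. The genes with an adjusted p under 0.05 were then Snhg17, Snhg8 and Snhg3, 3 of the 10 and all lower with PEDF, as against 1.21% of all genes. Their log2 fold changes were -0.38 (standard error 0.09, adjusted p = 0.00159), -0.40 (standard error 0.11, adjusted p = 0.0277) and -0.40 (standard error 0.12, adjusted p = 0.0432), all by edgeR. These standard errors too rest mostly on the spread shared by all genes, since 1 degree of freedom is left for each gene. DESeq2 with the block, the trends left in, gave unadjusted p-values of 0.194 for Snhg8 and 0.257 for Snhg3. Snhg1 had a log2 fold change of -0.25 (adjusted p = 0.0687, edgeR) and Zfas1 one of -0.25 (adjusted p = 0.0953, edgeR). Snhg6 moved from 0.04 to -0.10 and did not pass the test, nor did Gas5, at -0.12 (adjusted p = 0.329, edgeR). With length alone taken out, Snhg17 (adjusted p = 0.00155, edgeR) and Snhg8 (adjusted p = 0.0444, edgeR) passed, 2 of the 10 as against 1.28% of all genes called lower, and Snhg3 did not (adjusted p = 0.0935, edgeR). The 853 bp, 986 bp and 7052 bp of these genes lie near the ends of the lengths of the members, and the lengths behind the TPM values differ from GENCODE M21 for Snhg5 (3634 bp against 1730 bp), Snhg15 (2652 bp against 1359 bp) and Zfas1 (1901 bp against 2929 bp).

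**Figure D4:**
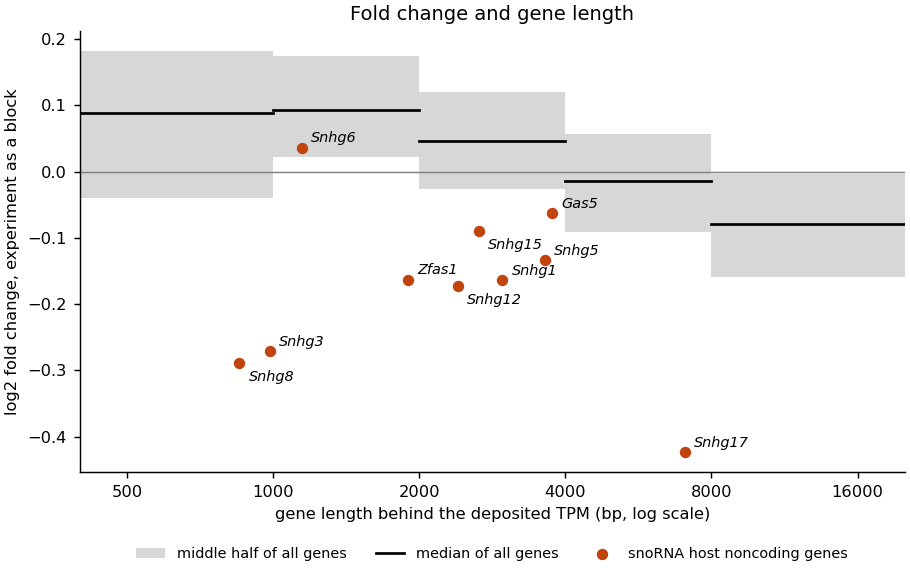
Log2 fold change of PEDF against control with the experiment as a block, against gene length on a log scale, with the median (line) and the middle 50% (grey) of all genes with a mean log2 CPM above 3 in 5 length classes, and the snoRNA host noncoding genes as red points. The medians step down from 0.09 to -0.08, and 9 of the 10 members lie below the grey band of their class.

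**Figure D5:**
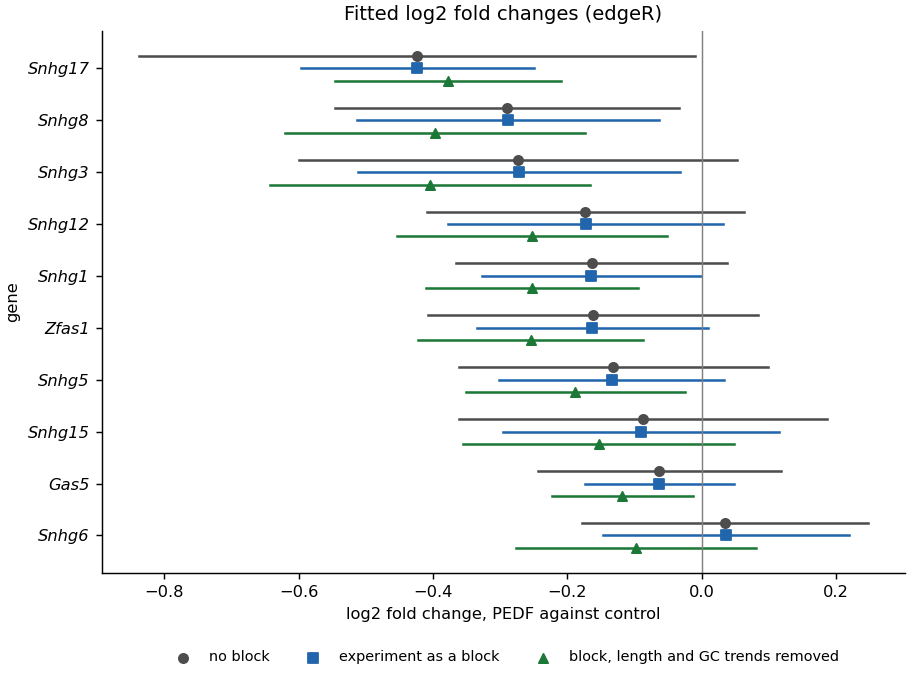
Fitted log2 fold change of PEDF against control with its 95% interval for each snoRNA host noncoding gene, from edgeR without a block (grey circles), with the experiment as a block (blue squares), and with the block and the trends with length and GC content removed (green triangles). For Snhg17 the upper end of the interval lies at -0.01 without the block, -0.25 with it and -0.21 with the trends removed, and for Snhg3 at 0.05, -0.03 and -0.17.

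The snoRNAs themselves are poorly captured by poly(A) selection, and their counts are given for completeness. Of the 36 snoRNA genes, 32 had no count in any library and 4 had one, as against 165 with a count among all 1507 snoRNA genes. Snora73b, a box H/ACA snoRNA of the U17 type, had 29 and 48 counts in the control and PEDF libraries of experiment 1, and 55 and 69 counts in those of experiment 2. It was thus the higher one with PEDF in both experiments while its host Snhg3 was the lower one. Its log2 fold change, 0.45 with a standard error of 0.30, did not pass the test (adjusted p = 0.781, edgeR). Snora73a, which differs from Snora73b at 7 of 205 positions, had 5, 0, 4 and 2 counts in the same order of libraries, so reads of either could have been assigned to the other or to none. Gm23201 in Zfas1 had 16, 16, 33 and 23 counts, and Snord87 in Snhg6 had 0, 1, 7 and 2. All 3 snoRNA genes that lie outside the M21 exons of their host had counts. Of the 33 inside an M21 exon of some host transcript, where a read would fall on both genes, 1 had counts. That 1 is Gm23201 in Zfas1, whose length behind the TPM values is 1901 bp against 2929 bp in M21. Whether Gm23201 lies in a counted exon is therefore not known. The part of the overlap with host exons in the zeros was not tested.

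The annotation limits the counts of some hosts. Exons of Snhg3 share 135 bp with Rcc1 on the same strand (13.7% of its exonic length) and 705 bp with Gm17300 on the opposite strand (71.5%). Gm17300 had 23.4 and 21.7 CPM in the control and PEDF libraries of experiment 1, and 32.3 and 29.2 CPM in those of experiment 2, an order of libraries also seen in Snhg3. Without a stated strand setting, reads of Snhg3 and Gm17300 cannot be told apart. Snhg6 shares 127 bp (11.1%) with Mcmdc2 on the opposite strand. Zfas1 shares 189 bp (6.45%) with Gm27494 on the same strand and 82 bp (2.80%) with Znfx1 on the opposite strand. Retained introns make up most transcripts of some hosts in GENCODE M21 (20 of 25 for Gas5, 14 of 18 for Snhg1 and 4 of 5 for Zfas1). Reads of unspliced RNA therefore count towards Gas5 and Snhg1, whose lengths behind the TPM values match M21. For Zfas1 that length is 1901 bp against 2929 bp in M21. Which of its M21 exons and overlaps were counted is therefore not known.

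Of the members, 3 lie head to head with a protein-coding gene within 1 kb of their start. Slc3a2, the heavy chain of an amino acid transporter that begins 106 bp from Snhg1, had 258 and 259 CPM in the control and PEDF libraries of experiment 1, and 288 and 278 CPM in those of experiment 2. Its log2 fold change was -0.03 (standard error 0.07, adjusted p = 0.957, edgeR), while that of Snhg1 was -0.16. Znfx1, whose start lies 81 bp inside Zfas1 on the other strand, had 32.9 and 30.6 CPM in experiment 1 and 34.1 and 30.1 CPM in experiment 2, and was lower with PEDF in both, whereas Zfas1 was lower in experiment 1 alone. Zbtb37, whose start lies 427 bp inside Gas5 on the other strand, had 17.2 and 16.5 CPM in experiment 1 and 21.4 and 16.5 CPM in experiment 2. None of the 3 neighbours passed the test, with or without the block (edgeR, adjusted p between 0.760 and 0.957 without it).

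Other noncoding snoRNA hosts, chosen by name like the members, also had mostly negative values. Of 12 listed, 10 were in the table and 9 were tested. Before the trends with length and GC content were removed, no gene of this list passed in edgeR, with or without the block. Without the block, 0 had an unadjusted p under 0.05, as against 6.88% of all genes. In that fit 7 of the 9 had a log2 fold change below 0, as against 49.8% of all genes, and the median of the 9 was -0.18. Dancr had 7.52 and 5.73 CPM in experiment 1 and 10.3 and 7.75 CPM in experiment 2, control library first, and its log2 fold change was -0.40 with a standard error of 0.20 (adjusted p = 0.739, edgeR). Snhg4 had a log2 fold change of -0.37 (adjusted p = 0.733, edgeR), and Snhg14, the long host of an imprinted snoRNA cluster, one of 0.17 (adjusted p = 0.776, edgeR). With the block and length alone taken out, Snhg14 was the 1 gene of this list called, as against 430 of all 19384 genes. With length and GC content taken out it had 0.31 and did not pass (adjusted p = 0.0697, edgeR). The 32 protein-coding hosts, mainly genes of ribosomal proteins and translation factors, had a median of 0.04, and 12 of them had a value below 0, as against 49.8% of all genes. With the block and the trends with length and GC content removed, the median of these hosts was 0.0078. In that fit 14 of them were below 0, as against 51.3% of all genes. With the block, 7 of them rose and 1 fell (edgeR), as against 1.67% and 2.07% of all genes. Rack1, a protein of the small ribosomal subunit, rose by 0.21 on the log2 scale (adjusted p = 6.19e-05 with the block, edgeR) and Rpl23a rose by 0.18 (adjusted p = 0.00171 with the block, edgeR), while Rpl17 fell by 0.58 (adjusted p = 6.02e-26 with the block, edgeR). Rpl17 had -0.69 and did not pass after the trends with length and GC content were removed (standard error 0.24, adjusted p = 0.675, edgeR), and its ratios in the experiments, -0.33 and -0.80, lay far apart. Rpl23a did not pass either, with 0.076 (adjusted p = 0.431, edgeR). After that removal 3 of the 32 passed, all higher, as against 0.996% of all genes, and Rack1 was among them.

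The genes for proteins of snoRNA particles were listed by particle. For the 4 core proteins of box C/D particles, 1 of them below 0, the median on the log2 scale was 0.06, and it was 0.09 after the trends with length and GC content were removed. Of these, Snu13 had 84.6 and 99.7 CPM in experiment 1 and 75.5 and 87.1 CPM in experiment 2, control library first, and rose by 0.22 with the block (adjusted p = 0.010, edgeR), but did not pass without it (0.22, adjusted p = 0.696) or after the trends were removed (0.14, adjusted p = 0.196). Fbl, the methyltransferase of these particles, had a log2 fold change of 0.10 (adjusted p = 0.799, edgeR). All 4 core proteins of box H/ACA particles had values below 0, with a median of -0.02, and -0.09 after the trends were removed, and none passed the test in either fit, nor did any of the 12 assembly factors (median 0.01).

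Nonsense-mediated decay removes spliced hosts that are translated, and of its 20 listed factors none passed without the block in edgeR, with 4 at an unadjusted p under 0.05, as against 6.88% of all genes. With the block 3 passed, as against 1.67% of all genes called higher and 2.07% called lower, shares that also stand beside the counts of the lists below. Smg1, the kinase of the pathway, fell by 0.26 on the log2 scale (adjusted p = 0.000375, edgeR), Nbas fell by 0.24 (adjusted p = 0.0250, edgeR), and Rbm8a, a core protein of the exon junction complex, rose by 0.24 (adjusted p = 0.00554, edgeR). Once the length and GC trends were removed none of the 3 passed in edgeR, with -0.11 for Smg1 (adjusted p = 0.378), -0.17 for Nbas (adjusted p = 0.223) and 0.17 for Rbm8a (adjusted p = 0.106). The 14 protein-coding transcripts known as targets of the pathway had a median of 0.02, 6 of them were below 0, and none passed with or without the block. Once the trends were removed their median was -0.03, and 9 of them were below 0.

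Genes of mTORC1 and of the control of pyrimidine-run mRNAs (14 tested) had a median of -0.01, and 1 of them, Rps6, rose with the block (0.17, adjusted p = 0.00416, edgeR). Rptor had a log2 fold change of -0.20 (adjusted p = 0.0508 with the block, edgeR). Of 14 proliferation genes, Tyms, which makes thymidylate, rose by 0.24 with the block (adjusted p = 0.0354, edgeR) and Mki67, a marker of cycling cells, fell by 0.16 (adjusted p = 0.0298, edgeR). With the length and GC trends removed, Tyms still passed (0.26, adjusted p = 0.0173, edgeR), while Rps6 (0.088, adjusted p = 0.304) and Mki67 (-0.095, adjusted p = 0.352) did not. The median of the proliferation genes was 0.05, and 4 of them were below 0. With the length and GC trends removed the median was 0.0092, and 5 were below 0. Without the block and the removal of trends, with all libraries and the filter on low counts, no gene of the related lists passed in edgeR. In that fit an unadjusted p under 0.05 was found for 3 protein-coding hosts, 4 decay factors, 1 box C/D protein, 2 mTORC1 genes and 2 proliferation genes, and for 0 genes of the other lists.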

How the data were processed

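Polyadenylated RNA of 2 control and 2 PEDF-treated MEF libraries was sequenced from directional libraries. The authors trimmed reads (Trimmomatic 0.38), aligned them with HISAT2 2.1.0 to mm10 and counted them per gene with featureCounts 1.6.3. The authors deposited the raw counts and, beside them, TPM values. The strand setting, annotation and TPM conversion are not given in the sources used here. Lengths were read from the ratio of counts to TPM, and 98.3% of genes with enough counts (50 or more) lay within 1% of GENCODE M21.

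The main comparison used edgeR 4.0.16 under R 4.3.3 (TMM, robust quasi-likelihood test, Benjamini-Hochberg adjustment over 19384 genes with at least 10 counts), without a covariate. The study's methods name DESeq2 and state no covariate. Alternatives were DESeq2 1.42.0, RLE factors, no filter (at least 1 count), filterByExpr, the experiment as a block, offsets from natural splines (5 degrees of freedom) for length and GC content, limma 3.58.1 on log2(TPM + 1) and log2(TPM + 0.1), and each library left out.

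The labels give each experiment its own embryos, so its libraries are paired. The differences between experiments in control and in PEDF-treated MEFs correlated over 10722 genes (r = 0.423 across genes, and genes are not replicates). Libraries of a group came from 2 preparations, and p-values without the block cover that spread. A count of 0 allows up to 3 counts, and the intervals from the counts cover counting error only, since PCR copies of a molecule are counted as separate reads. The named genes were the members, their snoRNAs, head-to-head neighbours within 1 kb, up to 3 genes of each related list by smallest unadjusted p, and the 5 genes most like the members in pattern. Rcc1, Gm17300, Mcmdc2 and Gm27494 are named as overlapping genes. The members and lists were chosen with earlier results of these data known.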

Additional observations from a re-analysis of the deposited data

Results flagged for a closer look

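Gas5, Snhg6, Snhg15 and Zfas1 had log2 ratios of PEDF to control of opposite sign in the experiments. The ratio of Gas5 was -0.23 in experiment 1 and 0.09 in experiment 2. That of Zfas1 was -0.43 in experiment 1 and 0.08 in experiment 2. The ratio of Snhg15 was -0.23 and then 0.03, and that of Snhg6 was -0.032 and then 0.10, and the counting intervals of all 4 genes include 0 in experiment 2, as does that of Snhg6 in experiment 1. With 1 library for each treatment in an experiment, these differences between the experiments were not tested.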

How the results depend on the processing

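The log2 fold changes of the 10 members kept their direction in 98 of 100 fits that used all libraries and in 35 of 40 that left out 1 library. The exceptions were Snhg6 with the block and the length offset (-0.055) or the length and GC offset (-0.097), Snhg6 without control replicate 2 (-0.012), and, without PEDF replicate 1, Gas5 (0.053), Snhg5 (0.021), Snhg15 (0.083) and Zfas1 (0.0050). The cause was not tested. With a library left out, the values ranged from -0.19 to 0.053 for Gas5, -0.31 to 0.021 for Snhg5, -0.012 to 0.081 for Snhg6, -0.29 to 0.083 for Snhg15 and -0.36 to 0.0050 for Zfas1, and, with no change of sign, from -0.45 (without PEDF replicate 2) to -0.069 (without control replicate 2) for Snhg3 and from -0.27 (without PEDF replicate 2) to -0.066 (without PEDF replicate 1) for Snhg1. The number of members with an adjusted p under 0.05, 0 in edgeR without the block, was 1 with no filter on low counts (Snhg17, adjusted p = 0.0160), 1 with the replicate block, 2 with the block and the length offset, 3 with the block and the length and GC offset, and 0 to 1 with a library left out. It was 0 in limma and in DESeq2 without the block, and DESeq2 with the block set no adjusted p for any member. The block changed the call of Snhg17 and of no other member. The median over the members ranged from -0.30 (without PEDF replicate 2) to -0.030 (without PEDF replicate 1) with a library left out.

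The number of all genes called was 1 in edgeR without the block, 3 in DESeq2, 0 with filterByExpr and with limma at either pseudocount, 106 with no filter, 726 with the block, 430 with the block and the length offset, 427 with the length and GC offset, 119 with the block in DESeq2, and 8 to 332 with a library left out. Among the related lists, with none called in edgeR without the block, the block called 8 protein-coding hosts, 3 decay factors, 2 proliferation genes, 1 box C/D protein and 1 mTORC1 gene. The block with the length offset called 4 protein-coding hosts, 1 decay factor, 1 proliferation gene and 1 other noncoding host (Snhg14), and with the length and GC offset 3 protein-coding hosts and 1 proliferation gene. The block in DESeq2 called 4 protein-coding hosts and 1 mTORC1 gene, and the fit with no filter called 1 protein-coding host. With a library left out, 0 to 2 protein-coding hosts and 0 to 1 decay factors were called. With 2 libraries in each group, counting error is widest for Snhg3, which had 204 counts in 1 library.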

Other observations

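The mean pattern of the 10 members over the 4 libraries, as centred log2 CPM, was 0.05 in control and -0.21 in PEDF MEFs of experiment 1, and 0.12 in control and 0.03 in PEDF MEFs of experiment 2. Among 9997 other genes with a mean of at least 10 CPM, the 5 with the smallest Euclidean distance from this pattern were Sfmbt1 (0.00996), Pcgf6 (0.0167), Cenpe (0.0175), Pask (0.0182) and Chd8 (0.0212). All 5 are protein coding. Sfmbt1 and Pcgf6 encode proteins of Polycomb complexes, Cenpe encodes a kinesin of the kinetochore, and Chd8 encodes a chromatin remodeller. A distance over 4 libraries is a description and carries no test.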
